A study of Rattus norvegicus with 15 samples.

Results

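The genes described here encode the proteasome, the chaperones and the proteins that fold, export and watch over proteins in the endoplasmic reticulum (ER). They were chosen by gene symbol. The families taken were the proteasome subunits and their partners, the heat shock proteins, the J proteins, the CCT chaperonin, the BAG co-chaperones, the protein disulfide isomerases, the FK506-binding proteins, the translocon, and the sensors and factors of the unfolded protein response. The immunoproteasome subunits *Psmb8*, *Psmb9* and *Psmb10* and the genes *Fkbp5* and *Hspg2* were left out. The choice found 75 members among 8621 genes listed in any of 3 tables. Of these members, 11 were listed in all 3 tables, 36 in 2 and 28 in 1, and 47 had values in all 15 samples. They were spread over 19 chromosomes, with 8 members on chromosome 5, the most on any chromosome.

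The proteasome is a barrel-shaped protease, the 20S core particle, capped by a 19S regulatory particle that binds ubiquitin-tagged proteins, unfolds them and feeds them in. Chaperones of the HSP70 family work in cycles that J proteins start and nucleotide exchange factors such as BAG proteins end, while small heat shock proteins hold unfolding proteins in solution, and stress raises many of them through heat shock factors. In the ER, which is large in secretory cells such as the chromaffin cells of the adrenal medulla, unfolded proteins activate the sensors PERK, IRE1 and ATF6, which lower translation and raise ER chaperones, and this is called the unfolded protein response (UPR).

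RNA-seq was performed on adrenal medullary tissue from 15 rats of the strain the labels spell Sprague-Dawely, from which the authors removed the cortex by dissection. RNA of cortex markers was still present, and its levels are given below. The 5 WT rats carried wildtype *Cdkn1b* and were 7 to 9.5 months old. MENX rats carry a germline frameshift mutation in *Cdkn1b*, which encodes the cell cycle inhibitor p27. The 5 HYP samples were hyperplastic medullas of mutant rats aged 4 to 5 months, and the 5 PCC samples were pheochromocytomas of mutant rats aged 7 to 9.5 months. The authors divided these tumours into PCCs and advanced PCCs, but the labels do not divide them by stage. Genotype and tumour cannot be told apart between PCC and WT, since every PCC sample came from a mutant rat and every WT sample from a wildtype rat. Genotype, hyperplasia and age cannot be told apart between HYP and WT, nor tumour stage and age between PCC and HYP. *Cdkn1b* itself was counted at 45.5 to 71.1 CPM (counts scaled to the depth of each sample) in WT, 81.5 to 126 in HYP and 109 to 176 in PCC, so its RNA was present in the mutant samples. Reads assigned to genes numbered 16315018 in the sample with the fewest and 23831269 in that with the most.

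Each table held only genes that the authors had called with an adjusted *p* under 0.05 in that comparison, so calls are frequent among all genes of a table, and the share of all genes called is given beside the numbers of members. These shares apply as well to each role, pathway list and marker list, where most are not repeated. The authors' calls came from DESeq2 on the same samples. A DESeq2 call or a low unadjusted *p* of a listed gene, and its direction, was therefore largely fixed by the listing. Counts of these are given as a description and lend no support to the edgeR calls. Counts were tested in edgeR (quasi-likelihood test), *p* was adjusted by Benjamini-Hochberg over as many genes as the authors tested, and a gene was called at an adjusted *p* under 0.05. Levels are CPM scaled with edgeR's TMM factors, in the order of replicates 1 to 5, and fold changes are log2. The 3 comparisons share groups and therefore samples, so they are not independent of each other. A call in 1 comparison and not in another does not show that the changes differ, since no such difference was tested. Gene positions are those of build Rn06. The scaling of the samples sets where no change lies. Against TMM, scaling to the recovered totals of reads on genes moved the median fold change of all genes by 0.29 for PCC over WT, 0.19 for HYP over WT and 0.22 for PCC over HYP. With the summed listed counts as totals, called the listed total here, it moved by 0.50, 0.46 and 0.15. For PCC vs. HYP the authors' size factors moved it by 0.11 and DESeq2's by -0.17.

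For PCC vs. WT, 69 members were listed and 67 tested. Of these, 16 were called higher in PCC (23.9%) and 35 lower (52.2%), while 46.7% of all 7001 genes tested were called higher and 38.5% lower. In all, 51 members were called, 76.1%, beside 85.2% of all genes. The median fold change was -0.60 over the members and 0.44 over all genes tested, and 48 members had a fold change under 0, beside 49.25% of all genes. The groups did not overlap for 37 members, 13 of them higher in PCC and 24 lower, beside 63.5% of all genes, 37.5% higher and 26.1% lower. With the recovered totals the members' calls were 19 higher and 17 lower, and with the listed total 19 higher and 11 lower, while the higher calls made up 68.9% and 76.3% of all calls in place of 54.8%. The lower calls kept with the recovered and the listed totals were those of *Bag1*, *Bag3*, *Dnajb1*, *Dnajb4*, *Dnajc15*, *Hspa1b*, *Hspb1*, *Hspd1*, *Psma1*, *Psmd8* and *Sec61b*. With the recovered totals alone those of *Atf4*, *Dnajc11*, *Fkbp9*, *Hspb6*, *Psma2* and *Psmb7* were kept as well, and all others were lost with either total. With only genes of at least 10 counts in every sample those of *Dnaja4*, *Psmb6* and *Psmd4* were lost. Of the members tested and not called by edgeR with TMM, DESeq2 called all but *Dnajb14*, which the listing by the authors' DESeq2 calls had largely fixed. Leaving out single samples gave 10 to 18 members called higher and 27 to 39 lower, with 10 higher without PCC replicate 1.

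For HYP vs. WT, 34 members were listed and 33 tested. Only *Eif2ak3* and *Dnajc27* were called higher, 6.06% of the members, and 21 members were called lower (63.6%), beside 39.5% and 32.5% of all 4108 genes tested. The 23 calls made up 69.7% of the members, and 72.1% of all genes were called. The groups did not overlap for 17 members, 3 higher and 14 lower, beside 55.8% of all genes, 34.9% higher and 21.0% lower. The median fold change was -0.50 over the members and -0.37 over all genes, and 29 members had a fold change under 0, beside 52.1% of all genes. With the recovered totals 3 members were called higher and 6 lower, and with the listed total 4 higher and 2 lower, while higher calls made up 75.8% and 89.3% of all calls in place of 54.8%. Lower calls in HYP were kept with both totals for *Bag3* and *Hspb1* and with the recovered totals alone for *Dnaja4*, *Dnajb2*, *Hspb8* and *Sec61b*, and those of all other members were lost with either total. With at least 10 counts in every sample, lower calls were lost for *Bag1*, *Cct4*, *Dnajb1*, *Dnajc7*, *Fkbp9*, *Hspb6*, *Hspbp1*, *Psma7*, *Psmb6*, *Psmd13*, *Psmd8*, *Psmd9* and *Sec61a1*, and with all 15 samples in 1 fit for *Bag1*, *Dnajb1*, *Dnajc7*, *Fkbp9* and *Hspb6*. Fits without a sample gave 9 to 20 members called lower.

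For PCC vs. HYP, 30 members were listed and 29 tested, of which 4 were called higher and 4 lower (13.8% each), beside 21.8% and 22.6% of all 3148 genes tested. The 8 calls were 27.6% of the members, while 44.4% of all genes were called. The groups did not overlap for 17 members, 10 higher and 7 lower, beside 53.5% of all genes, 31.5% higher and 22.0% lower. The median fold change was -0.52 over the members and 0.43 over all genes. Of the 29 members, 16 had a fold change under 0, beside 44.5% of all genes. Genes listed because they were called have few fold changes near 0, so a small imbalance can move a median from one side to the other. The split was 7 higher and 3 lower with the authors' size factors, 7 and 2 with the recovered totals, 5 and 1 with the listed total, and 5 and 16 with DESeq2. Higher calls made up 49.2% of all calls with TMM and 61.3%, 70.7%, 68.4% and 37.4% in these fits, of which DESeq2 changed the test as well as the scaling. Without HYP replicate 3 or HYP replicate 4, edgeR called 0 members higher, with 9 and 10 members higher at an unadjusted *p* under 0.05, and DESeq2 on all samples called 5. The fits without a sample called 2 to 12 members lower, 12 without PCC replicate 1 and 2 each time that a HYP sample was left out.

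**Figure D1:**
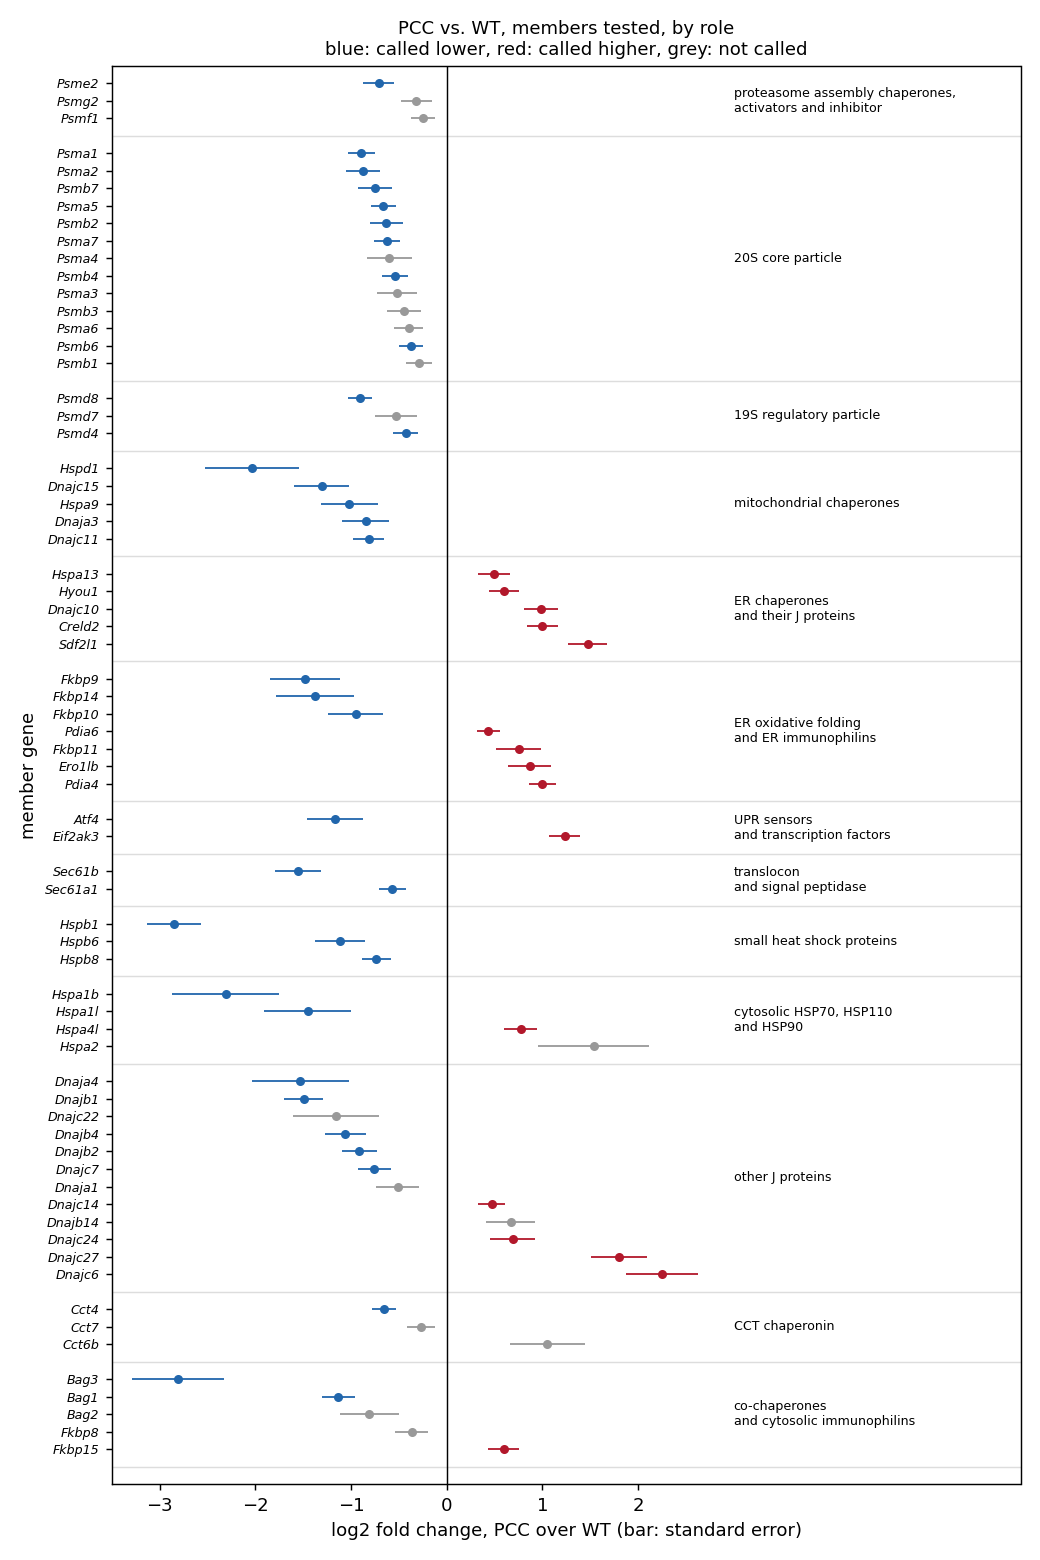
Each point is the log2 fold change of a member tested in PCC over WT (n = 5 each, TMM scaling), with its standard error as a bar and its role at the right, and the colour gives the call at an adjusted *p* under 0.05. All 5 ER chaperone genes that were listed lie above 0. All 13 subunits of the 20S core particle that were listed and tested lie below 0, of which 9 are below 0 when samples are scaled to the listed total.

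The 20S core particle is built of rings of alpha subunits (*Psma*) and beta subunits (*Psmb*), of which *Psmb5*, *Psmb6* and *Psmb7* carry the active sites. Its genes held 15 of the members. All 13 subunits tested in PCC vs. WT were fitted lower with TMM, the authors' size factors, DESeq2 and the recovered totals, and 9 of them with the listed total. Of the 13, 8 were called lower and 0 higher by edgeR, beside 38.5% of all genes lower and 46.7% higher, from -0.89 for *Psma1* to -0.37 for *Psmb6*. At an unadjusted *p* under 0.05, 12 were lower and 0 higher, and DESeq2 called 13 lower and 0 higher, which the listing had largely fixed. The calls lower numbered 3 with the recovered totals and 1 with the listed total.

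Per length, as the authors' FPKM, 14 core subunits were compared, leaving out *Psma8*, which was at 0 in WT and HYP. Their WT means ran from 68.0 FPKM for *Psma5* to 202 FPKM for *Psma2*, with a median of 128 FPKM. In PCC the means of 13 subunits ran from 53.1 FPKM for *Psma5* to 134 FPKM for *Psma2*, again without *Psma8*, which had 0.118 FPKM. Their median was 117.5 FPKM. In HYP, 9 subunits ran from 55.5 to 182 FPKM, from *Psma5* to *Psma2*, with a median of 101.6 FPKM. The medians of the groups are over different sets of subunits.

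Leaving *Psma8* out, the highest WT level was that of WT replicate 5 for 11 of 14 subunits, the highest PCC level that of PCC replicate 1 for 11 of 13, and the highest HYP level that of HYP replicate 3 for 6 of 9. Taken as the median over 13 subunits of CPM divided by the WT mean, the core particle stood at 0.849, 0.857, 0.943, 1.11 and 1.25 in WT and at 0.876, 0.638, 0.608, 0.644 and 0.656 in PCC. With these 13 subunits PCC replicate 1 lay among the WT samples, and the other 4 PCC samples lay below all 5. Over the 8 subunits with values in all samples, the median was 0.916, 0.884, 0.943, 1.11 and 1.16 in WT, 0.766, 0.621, 0.895, 0.763 and 0.714 in HYP and 0.771, 0.635, 0.603, 0.647 and 0.669 in PCC. All PCC samples then lay below all WT samples, and HYP replicate 3 lay among the WT samples.

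The alpha subunit *Psma1* (ENSRNOG00000011745, chromosome 1 from 183733567 to 183744586) had the largest called decrease of the core in PCC vs. WT. Its levels were 125, 132, 149, 176 and 207 CPM in WT, 109, 106, 139, 119.8 and 114 in HYP and 104, 77.1, 76.4, 83.6 and 90.9 in PCC. All 5 PCC samples lay below all 5 WT and all 5 HYP samples, while HYP replicate 3 lay among the WT samples. By edgeR's quasi-likelihood test (Benjamini-Hochberg adjusted) the change was -0.89 (standard error 0.14, adjusted *p* = 0.00101) in PCC vs. WT, -0.46 (standard error 0.16, adjusted *p* = 0.0722) in HYP vs. WT and -0.56 (standard error 0.16, adjusted *p* = 0.0542) in PCC vs. HYP, so only the first was called in this main fit. HYP vs. WT was called lower with DESeq2, the authors' size factors or the adjustment over the listed genes. PCC vs. HYP was called lower with DESeq2, no filter on low counts or the adjustment over the listed genes. It fell to 86.4 ± 11.4 CPM (SD, n = 5) in PCC from 158 ± 33.8 in WT.

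The beta subunit *Psmb4* (ENSRNOG00000020979, chromosome 2 from 196043618 to 196046311), which has no active site, had the largest called decrease of the core in HYP vs. WT. It was counted at 145, 131, 127, 143 and 127 CPM in WT, 101, 73.2, 91.4, 86.2 and 97.8 in HYP and 97.9, 88.3, 86.7, 105 and 99.5 in PCC. Both mutant groups lay wholly below WT and overlapped with each other. The change from edgeR's quasi-likelihood test (Benjamini-Hochberg adjusted) was -0.63 (standard error 0.13, adjusted *p* = 0.00821) in HYP vs. WT and -0.54 (standard error 0.13, adjusted *p* = 0.00977) in PCC vs. WT. The HYP call was lost with the recovered totals (-0.44) and the listed total (-0.17). Of 8 core subunits tested in HYP vs. WT, 3 were called lower and 0 higher by edgeR, as *Psma7* and *Psmb6* joined *Psmb4*, beside 32.5% of all genes lower. The lower calls numbered 6 with the authors' size factors and 0 with the recovered and with the listed totals. All 8 were fitted lower, except with the listed total, where 4 were, and at an unadjusted *p* under 0.05 there were 7 lower and 0 higher, with 5 lower and 0 higher by DESeq2. The catalytic subunit *Psmb5*, with 70.1, 64.6, 71.5, 77.6 and 81.5 CPM in WT and 72.1, 50.3, 59.3, 51.8 and 53.6 in HYP, was not called in the main fit (-0.39). *Psmb5* was called lower with DESeq2, the authors' size factors or the adjustment over the listed genes.

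*Psma8*, an alpha subunit of the testis, had 0 counts in all 10 WT and HYP samples and 3, 4, 4, 10 and 2 counts in PCC. It was removed by the filter on low counts, and no fold change is given.

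Of the 19S regulatory particle, 4 genes were listed, all from the part outside the ATPase ring. *Psmd8* and *Psmd4*, whose product binds ubiquitin chains, were called lower in PCC vs. WT and *Psmd7* was not (-0.53), and all 3 were fitted lower except with the listed total, where 2 were. *Psmd8* (ENSRNOG00000037580, chromosome 1 from 88116812 to 88123643), a subunit of the lid, had 129.5, 128, 157, 175 and 186 CPM in WT, 112, 100.5, 115, 124 and 108 in HYP and 94.2, 78.8, 80.5, 83.5 and 83.5 in PCC. The 3 groups were stacked with no overlap, WT highest and PCC lowest. By edgeR's quasi-likelihood test (Benjamini-Hochberg adjusted) it changed by -0.91 (standard error 0.12, adjusted *p* = 0.000426) in PCC vs. WT, -0.51 (standard error 0.14, adjusted *p* = 0.0245) in HYP vs. WT and -0.52 (standard error 0.14, adjusted *p* = 0.0414) in PCC vs. HYP. The first call held in every fit without a sample, the second was lost in 7 of 10 (-0.57 to -0.45) and the third in 9 of 10 (-0.61 to -0.49). The HYP vs. WT and PCC vs. HYP calls were both lost with the recovered and the listed totals, the former also with at least 10 counts in every sample (-0.41) and the latter also with the authors' size factors (-0.42) and with all 15 samples in 1 fit (-0.38). *Psmd13*, another lid subunit, had 70.9, 71.3, 81.6, 89.2 and 87.5 CPM in WT and 53.8, 47.6, 63.5, 62.0 and 64.3 in HYP and was called lower there (-0.50), which was lost with the recovered and the listed totals.

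Partners of the proteasome gave 4 members. *Psme2* (ENSRNOG00000019246, chromosome 15 from 34265557 to 34269851) encodes a subunit of the 11S activator, which caps the core in place of the 19S particle and is induced by interferon. Its levels were 221, 199.7, 188, 217 and 190 CPM in WT, 188, 152, 194, 158 and 156 in HYP and 159, 139.9, 113, 109.8 and 118 in PCC. Every PCC sample lay below every WT sample, and PCC replicate 1 lay within the HYP range. Its fold change in edgeR's quasi-likelihood test (Benjamini-Hochberg adjusted) was -0.71 (standard error 0.16, adjusted *p* = 0.00634) in PCC vs. WT, which was lost with the recovered totals (-0.43) and the listed total (-0.21). Between PCC and HYP its change of -0.52 was not called. *Psmd9* (ENSRNOG00000001339, chromosome 12 from 38786540 to 38805121), an assembly chaperone of the 19S base, was listed in HYP vs. WT alone, at 24.8, 22.4, 22.6, 28.0 and 24.2 CPM in WT and 17.4, 18.2, 16.3, 20.8 and 17.6 in HYP. The groups did not overlap, and the change by edgeR's quasi-likelihood test (Benjamini-Hochberg adjusted) was -0.47 (standard error 0.13, adjusted *p* = 0.0289), a call lost in 6 of 10 fits without a sample (-0.52 to -0.43) with the recovered and listed totals and with at least 10 counts in every sample. The assembly chaperone *Psmg2* (-0.32) and the inhibitor *Psmf1* (-0.25) were not called in PCC vs. WT.

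Other genes that build the proteasome or carry ubiquitin to it were taken from a list of 23, of which 8 were listed in a table. Of 5 tested in PCC vs. WT, 2 were called higher and 2 lower, with a median of -0.33. *Usp14*, a deubiquitinase of the proteasome (0.60), and the shuttle factor *Ubqln2* (0.57) were higher. *Zfand5*, which activates the 26S proteasome (-1.47), and *Nfe2l2*, the oxidative stress factor NRF2 (-0.90), were lower. In HYP vs. WT 1 of 3 was called lower, *Zfand5* (-1.02), and 0 higher by edgeR, with 0 higher at an unadjusted *p* under 0.05 and 0 by DESeq2, and the median was -0.72. Between PCC and HYP 1 of 2 was called lower, *Nfe2l2* (-0.96), and 0 higher by edgeR, by DESeq2 or at an unadjusted *p* under 0.05, with a median of -0.76. Summed CPM over 2 genes with values in all samples were 411, 380.5, 378, 422 and 658 in WT, 289.5, 283, 339, 264 and 257 in HYP and 308, 106, 158, 114 and 256 in PCC.

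**Figure D2:**
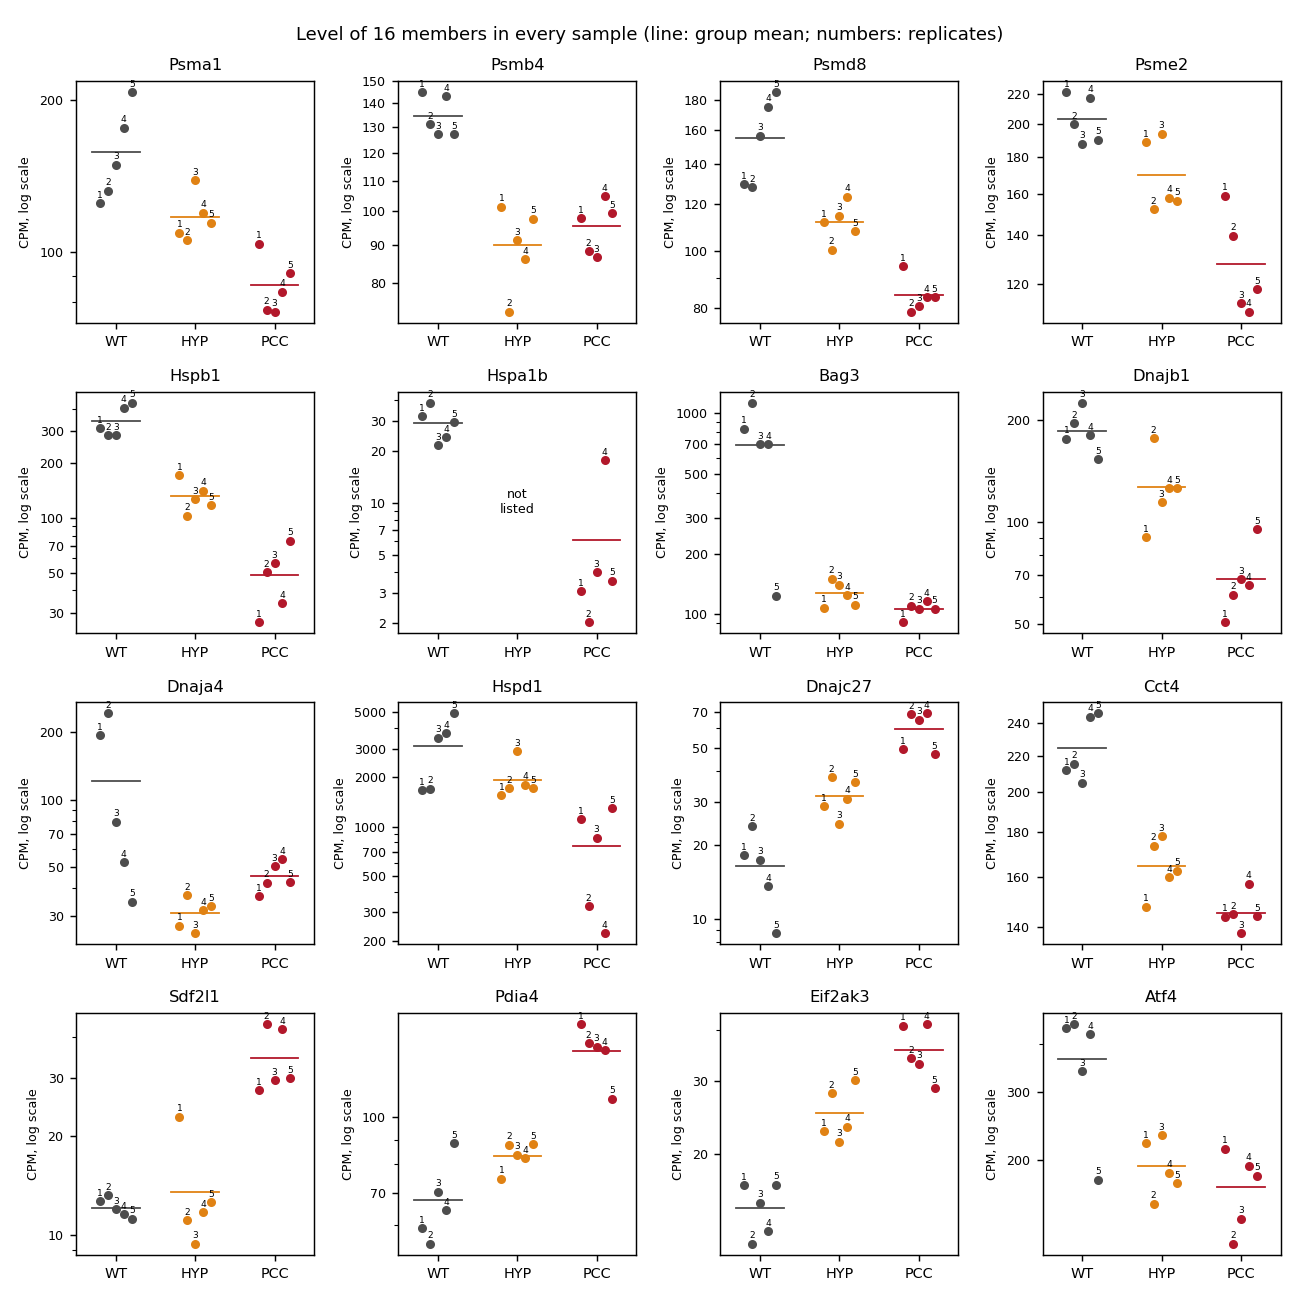
Each panel shows the CPM of a member on a log scale in every WT, HYP and PCC sample, with the replicate number at each point and the group mean as a line. *Psmd8*, *Hspb1* and *Dnajc27* separate all 3 groups, while WT replicate 5 is the lowest WT sample for *Bag3* (123.1 CPM) and *Atf4* (178 CPM).

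The small heat shock proteins gave 5 members, and the 3 tested against WT were called lower in both PCC and HYP, and were fitted lower with each of the 5 scalings. In either comparison 2 of the 3 lower calls were left with the recovered totals and 1 with the listed total. *Hspb1* (ENSRNOG00000023546, chromosome 12 from 23839399 to 23841049), the chaperone HSP27, was among the most abundant members in WT at 351 ± 30.4 FPKM. It had 313, 286, 286, 405 and 432 CPM in WT, 172, 103, 127, 141 and 117 in HYP and 26.6, 50.1, 56.3, 33.9 and 74.9 in PCC. The lowest WT sample lay above the highest HYP sample, and the lowest HYP sample above the highest PCC sample. Fitted with edgeR's quasi-likelihood test (Benjamini-Hochberg adjusted), the change was -2.85 (standard error 0.28, adjusted *p* = 9.90e-05) in PCC vs. WT, -1.42 (standard error 0.18, adjusted *p* = 0.000691) in HYP vs. WT and -1.56 (standard error 0.28, adjusted *p* = 0.00899) in PCC vs. HYP, and each of these calls held in every alternative tried.

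*Hspb8*, which works with *Bag3* in the removal of misfolded proteins, had 56.7, 69.0, 72.4, 107 and 79.5 CPM in WT, 51.3, 37.3, 38.5, 48.9 and 51.6 in HYP and 46.6, 49.1, 44.8, 46.8 and 47.8 in PCC. All WT samples were above all samples of both other groups, which overlapped (-0.73 in PCC vs. WT and -0.79 in HYP vs. WT). *Hspb6* was lower too (-1.11 in PCC and -0.51 in HYP). *Hspb7* was listed in PCC vs. HYP alone, with 16.0 CPM in PCC replicate 4 and 0.963 to 2.51 CPM in the other PCC samples, and was not called (2.05). *Hspb3* had 0 counts in WT, 5, 2, 3, 5 and 3 counts in HYP and 3, 12, 7, 4 and 17 counts in PCC, and was removed by the filter on low counts.

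Of the cytosolic HSP70 and HSP110 genes, 4 were listed. *Hspa1b* (ENSRNOG00000050647, chromosome 20 from 4877324 to 4879779), the stress-inducible HSP70, had 31.9, 38.4, 21.6, 24.2 and 29.6 CPM in WT and 3.06, 2.02, 3.97, 17.8 and 3.53 in PCC. All PCC samples were below all WT samples, but PCC replicate 4 was far above the other 4. By edgeR's quasi-likelihood test (Benjamini-Hochberg adjusted) the change was -2.31 (standard error 0.56, adjusted *p* = 0.00806), and without PCC replicate 4 it was -3.26. *Hspa1b* has a near-identical neighbour copy that can share its reads and overlaps 2 annotated MHC genes, *RT1-CE4* and *RT1-CE7*, on the same strand, so its level is uncertain. *Hspa4l* (ENSRNOG00000010819, chromosome 2 from 127625737 to 127677499), an exchange factor of the HSP110 family, had 16.6, 22.4, 21.7, 25.7 and 22.7 CPM in WT and 45.4, 29.8, 45.9, 40.4 and 30.2 in PCC. It was higher in all 5 PCC samples than in any WT sample, by 0.77 (standard error 0.17, adjusted *p* = 0.00554) with edgeR's quasi-likelihood test (Benjamini-Hochberg adjusted).

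The testis-enriched *Hspa1l* was called lower at low levels (2.28, 2.18, 1.17, 1.12 and 5.45 CPM in WT and 0.789, 0.963, 0.567, 0.714 and 1.38 in PCC). *Hspa2* was not called in the main fit with TMM in PCC vs. WT (1.54) or PCC vs. HYP (1.57). It was called higher in PCC vs. WT with the recovered totals, the listed total and DESeq2. *Hspa2* was called higher in both comparisons with the adjustment over the listed genes alone. The same held with all 15 samples in 1 fit (1.58 and 1.75). *Hspa2* had 261 CPM in PCC replicate 4, beside 32.0 to 60.4 CPM in the other PCC samples. PCC replicate 4 was thus the highest PCC sample for *Hspa1b*, *Hspa2* and *Hspb7*. *Hspa1a*, *Hspa8*, *Hsph1*, *Hsp90aa1* and *Hsp90ab1* were not analysed here.

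J proteins outside the ER and mitochondria gave 12 members. Of these, 4 were called higher and 5 lower in PCC vs. WT, and 7 were fitted lower, 6 with the listed total. With the recovered or the listed totals 5 were called higher and 2 lower. *Dnajb1* (ENSRNOG00000021824, chromosome 19 from 24747178 to 24750919), the main stress-inducible J partner of HSP70, had 176, 195, 224, 179.6 and 153 CPM in WT, 90.2, 176, 114, 126 and 126 in HYP and 50.6, 61.0, 67.8, 65.1 and 95.1 in PCC. The PCC samples lay below all WT samples, and HYP replicates 1 and 2 reached into the PCC and WT ranges. The change from edgeR's quasi-likelihood test (Benjamini-Hochberg adjusted) was -1.50 (standard error 0.20, adjusted *p* = 0.000419) in PCC vs. WT, -0.60 (standard error 0.18, adjusted *p* = 0.0392) in HYP vs. WT and -1.01 (standard error 0.22, adjusted *p* = 0.0189) in PCC vs. HYP, and both calls that involve HYP were lost with the recovered and the listed totals (-0.79 and -0.85 in PCC vs. HYP).

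*Dnaja4* (ENSRNOG00000012106, chromosome 8 from 59278262 to 59294003) differed widely among the WT samples, which had 194, 243, 79.7, 52.5 and 34.9 CPM, beside 27.2, 37.2, 25.2, 31.9 and 33.3 in HYP and 36.9, 42.4, 50.2, 54.0 and 42.6 in PCC. WT replicates 1 and 2 stood far above all other samples, while WT replicate 5 lay within the HYP range and WT replicate 4 within the PCC range. Its fold change in edgeR's quasi-likelihood test (Benjamini-Hochberg adjusted) was -2.05 (standard error 0.48, adjusted *p* = 0.0132) in HYP vs. WT and -1.53 (standard error 0.51, adjusted *p* = 0.0391) in PCC vs. WT, and the latter was lost in 7 of 10 fits without a sample, with -1.30 without WT replicate 1 and -1.08 without WT replicate 2. The HYP vs. WT call was lost with the listed total (-1.59). *Dnajb4* (-1.06), *Dnajb2* (-0.91) and *Dnajc7* (-0.76) were the other J proteins called lower in PCC vs. WT, and of these *Dnajb2* (-0.79) and *Dnajc7* (-0.50) were called lower in HYP vs. WT as well. Both of these HYP calls were lost with the listed total, and that of *Dnajc7* also with the recovered totals.

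The largest increases against WT among all members belonged to a pair of J proteins of vesicle traffic and signalling. *Dnajc6* (ENSRNOG00000052887, chromosome 5 from 120340646 to 120492487), the neuronal auxilin that strips clathrin from vesicles, had 16.0, 19.04, 15.3, 10.2 and 4.50 CPM in WT, 17.2, 36.2, 23.2, 29.9 and 41.1 in HYP and 60.3, 57.2, 73.2, 92.0 and 46.3 in PCC. PCC samples were the highest without exception, and HYP overlapped with WT through HYP replicate 1. Fitted with edgeR's quasi-likelihood test (Benjamini-Hochberg adjusted), the change was 2.25 (standard error 0.38, adjusted *p* = 0.00121) in PCC vs. WT, 1.04 (standard error 0.24, adjusted *p* = 0.0267) in PCC vs. HYP and 1.11 (standard error 0.35, adjusted *p* = 0.0509) in HYP vs. WT, the last not being called. HYP vs. WT was called higher with DESeq2 (1.17), the listed total (1.58) or no filter on low counts (1.11). It was also called with at least 10 counts in every sample, adjustment over the listed genes or all 15 samples in 1 fit. It was not called with the recovered totals (1.28) or the authors' size factors (1.05). The PCC vs. HYP call was lost without PCC replicate 3 (1.01), HYP replicate 3 (0.94) or HYP replicate 4 (1.01).

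*Dnajc27* (ENSRNOG00000003988, chromosome 6 from 28515025 to 28544790), a small GTPase with a J domain, had 18.1, 23.8, 17.4, 13.6 and 8.71 CPM in WT, 28.9, 37.7, 24.4, 30.9 and 36.1 in HYP and 49.3, 68.5, 65.0, 68.9 and 47.1 in PCC. No sample of any group reached into the next group. By edgeR's quasi-likelihood test (Benjamini-Hochberg adjusted) the change was 1.80 (standard error 0.29, adjusted *p* = 0.00101) in PCC vs. WT, 0.89 (standard error 0.25, adjusted *p* = 0.0299) in HYP vs. WT and 0.80 (standard error 0.17, adjusted *p* = 0.0181) in PCC vs. HYP. The HYP vs. WT call was lost with the authors' size factors (0.83) and without WT replicate 3 (0.89), WT replicate 4 (0.80) or HYP replicate 2 (0.85), and the PCC vs. HYP call without HYP replicate 3 (0.70) or HYP replicate 4 (0.76). WT replicate 5 was the lowest of all samples for both *Dnajc6* and *Dnajc27*.

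Co-chaperones and cytosolic immunophilins gave 6 members. *Bag3* (ENSRNOG00000020298, chromosome 1 from 199941161 to 199965191), an exchange factor of HSP70 that directs misfolded proteins to autophagy and is induced by stress, had 836, 1125, 701, 701 and 123.1 CPM in WT, 108, 149.7, 139.9, 124 and 112 in HYP and 90.8, 109.9, 106, 116 and 106 in PCC. WT replicates 1 to 4 were several times above every HYP and PCC sample, while WT replicate 5 lay within the HYP range and just above the PCC range. The change from edgeR's quasi-likelihood test (Benjamini-Hochberg adjusted) was -2.81 (standard error 0.48, adjusted *p* = 0.00137) in PCC vs. WT and -2.52 (standard error 0.44, adjusted *p* = 0.00330) in HYP vs. WT, and without WT replicate 5 these were -3.09 and -2.80. *Bag1* (ENSRNOG00000008277, chromosome 5 from 57254421 to 57267002), an exchange factor that also binds the proteasome, had 93.1, 87.5, 91.5, 110.4 and 82.6 CPM in WT, 72.6, 64.9, 77.9, 64.5 and 63.5 in HYP and 58.4, 41.9, 41.9, 32.2 and 43.9 in PCC. The 3 groups did not overlap. Its fold change in edgeR's quasi-likelihood test (Benjamini-Hochberg adjusted) was -1.13 (standard error 0.17, adjusted *p* = 0.000679) in PCC vs. WT, -0.48 (standard error 0.13, adjusted *p* = 0.0267) in HYP vs. WT and -0.76 (standard error 0.18, adjusted *p* = 0.0298) in PCC vs. HYP, and the HYP vs. WT call was lost with the recovered and the listed totals. The PCC vs. HYP call was lost with the listed total and in 7 of 10 fits without a sample (-0.93 to -0.68).

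*Fkbp15* (ENSRNOG00000024663, chromosome 5 from 78133886 to 78183122), which has an FK506-binding domain, was the only co-chaperone gene called higher in PCC vs. WT. It had 26.2, 22.0, 24.2, 27.0 and 34.6 CPM in WT and 46.9, 39.4, 40.1, 49.4 and 30.4 in PCC, where PCC replicate 5 lay within the WT range. Fitted with edgeR's quasi-likelihood test (Benjamini-Hochberg adjusted), the change was 0.60 (standard error 0.16, adjusted *p* = 0.0153), and it was not called without PCC replicate 1 (0.51). *Bag2* and *Fkbp8* were not called in PCC vs. WT (-0.81 and -0.37), and the HSP70-binding *Hspbp1* was called lower in HYP vs. WT (-0.67). The *Hspbp1* call was lost with the recovered totals, with the listed total and with at least 10 counts in every sample (-0.56).

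The CCT chaperonin folds actin and tubulin. *Cct4* (ENSRNOG00000009642, chromosome 14 from 107767392 to 107780270), a subunit of it, had 212, 216, 205, 244 and 246 CPM in WT, 148, 174, 178, 159.9 and 162 in HYP and 144, 145, 138, 157 and 144 in PCC. WT samples lay above all others, and HYP and PCC overlapped. By edgeR's quasi-likelihood test (Benjamini-Hochberg adjusted) the change was -0.66 (standard error 0.13, adjusted *p* = 0.00257) in PCC vs. WT and -0.49 (standard error 0.12, adjusted *p* = 0.0182) in HYP vs. WT. Both calls were lost with the recovered totals (-0.36 and -0.29) and the listed total (-0.15 and -0.03), and the HYP call also without HYP replicate 4 (-0.47) or HYP replicate 5 (-0.47) and with at least 10 counts in every sample (-0.38). *Cct7* (-0.27) and the low *Cct6b* (1.05, which overlaps a gene on the opposite strand) were not called.

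Heat shock factors, partners of HSP90 and prefoldin subunits were taken from a list of 26, of which 13 were listed. Of 10 tested in PCC vs. WT, 2 were called higher and 6 lower, with a median of -0.52. *Hsf1*, the main heat shock factor, was lower in PCC (-1.52) and in HYP (-1.41), and *Hsf2* was higher in PCC (0.70). *Stub1*, a ubiquitin ligase that works with HSP70 (0.53), was higher, and the collagen chaperone *Serpinh1* (-1.52) was lower. Between HYP and WT 3 of 7 were called lower and 0 higher by edgeR, with 1 higher at an unadjusted *p* under 0.05 and 1 by DESeq2, and the median was -0.49. Between PCC and HYP 1 of 2 was called lower, *Serpinh1* (-1.07), and 0 higher by edgeR, by DESeq2 or at an unadjusted *p* under 0.05, with a median of -0.39. Summed CPM over 6 genes were 860.4, 979, 881, 1079 and 1046 in WT, 614, 546, 656, 621 and 592 in HYP and 488, 469.7, 523, 497 and 552 in PCC, led by *Hsf1*.

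Immediate early genes, which cells raise within minutes of a stimulus such as handling of tissue, were counted beside the heat shock genes. Of 13 listed as markers, 6 were in a table. In PCC vs. WT 5 of 5 were called lower, in HYP vs. WT 6 of 6 and in PCC vs. HYP 1 of 1. Summed over 5 genes, of which *Jun* was the most abundant and none was at 0 in every sample, they stood at 5220, 4911, 2822, 1715 and 3008 CPM in WT, 1537, 1233, 779, 936 and 857 in HYP and 383, 227, 386, 276 and 1422 in PCC. WT samples were the highest, and PCC replicate 5 lay within the HYP range. No test of this or any other sum of markers is given, since only genes that the authors had called between these groups could enter it. Their part in the lower levels of *Hspb1*, *Hspa1b*, *Dnajb1*, *Dnaja4*, *Bag3* and *Atf4* was not tested.

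Mitochondrial chaperones gave 5 members, and all 5 were called lower in PCC vs. WT, beside 38.5% of all genes, with 3 called lower under the recovered totals and 2 under the listed total, and were fitted lower with every scaling. *Hspd1* (ENSRNOG00000014525, chromosome 9 from 61680530 to 61690956), the chaperonin HSP60 of the mitochondrial matrix, was the most abundant member in WT at 1218 ± 408 FPKM. It had 1673, 1710, 3498, 3737 and 4925 CPM in WT, 1554, 1721, 2902, 1805 and 1712 in HYP and 1112, 324, 857, 223 and 1297 in PCC. PCC samples lay below all others, PCC replicates 2 and 4 the lowest, and HYP overlapped with WT. The change from edgeR's quasi-likelihood test (Benjamini-Hochberg adjusted) was -2.04 (standard error 0.49, adjusted *p* = 0.00843) in PCC vs. WT and -1.45 (standard error 0.47, adjusted *p* = 0.0757) in PCC vs. HYP, the second not being called except without PCC replicate 5 (-1.74), with DESeq2 (-1.62) or with the adjustment over the listed genes alone.

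Among the other mitochondrial genes, the matrix HSP70 *Hspa9* changed by -1.02, its J protein *Dnaja3* by -0.85, *Dnajc15*, which acts in protein import, by -1.31 and *Dnajc11* by -0.81 in PCC vs. WT. *Hspa9* had 229, 252, 515, 535 and 785 CPM in WT, 234, 319, 428, 362 and 358 in HYP and 267, 138, 257, 229.6 and 252 in PCC. WT replicates 1 and 2 lay within the PCC range, and the other WT samples lay above it. Between PCC and HYP 0 of 4 mitochondrial chaperones were called by edgeR in either direction, with 4 lower and 0 higher at an unadjusted *p* under 0.05 and by DESeq2.

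Markers of the adrenal cortex, whose steroid-making cells are rich in mitochondria, were mostly called in the same direction among those listed. Of 15 markers 11 were listed, and 9 of 11 were called lower in PCC vs. WT, 4 of 8 in HYP vs. WT and 0 of 6 in PCC vs. HYP by edgeR, where 6 were lower at an unadjusted *p* under 0.05 and 6 by DESeq2. Summed over 9 genes, with *Cyp21a1* the most abundant and no gene at 0 in every sample, they stood at 27990, 26250, 41700, 58560 and 54790 CPM in WT, 22550, 12680, 31730, 22490 and 18670 in HYP and 13010, 2875, 10440, 893 and 14550 in PCC. PCC replicates 2 and 4 were the lowest, as they were for *Hspd1*, and WT replicates 3 to 5 the highest. In bulk tissue, fewer cells of a type and less RNA per cell cannot be told apart, and the part of cortical RNA in the levels of the mitochondrial chaperones, of the proteasome and of the other members was not tested.

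Those chaperones of the ER lumen that were listed gave the other direction. All 5 members of this role, *Sdf2l1*, *Creld2*, *Dnajc10*, *Hyou1* and *Hspa13*, were called higher in PCC vs. WT, beside 46.7% of all genes, and were fitted higher with every scaling, with 4 called under the authors' size factors and DESeq2 and 5 under the recovered and listed totals. As the median over these genes of CPM divided by the WT mean, they stood at 0.848, 0.852, 1.10, 0.988 and 1.08 in WT and 2.04, 1.69, 1.89, 2.16 and 1.51 in PCC. Over the 4 genes with values in all samples the HYP samples stood at 1.34, 1.23, 1.09, 1.17 and 1.32. Every PCC sample was above every WT sample.

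*Sdf2l1* (ENSRNOG00000001859, chromosome 11 from 88122271 to 88124513), a partner of the ER HSP70 and its J proteins, had 12.6, 13.2, 11.9, 11.5 and 11.2 CPM in WT, 22.9, 11.1, 9.37, 11.7 and 12.5 in HYP and 27.5, 43.8, 29.6, 42.2 and 29.9 in PCC. All PCC samples were above all others, HYP replicate 1 was the highest sample outside PCC, and the other HYP samples lay near the WT samples. Its fold change in edgeR's quasi-likelihood test (Benjamini-Hochberg adjusted) was 1.48 (standard error 0.20, adjusted *p* = 0.000468) in PCC vs. WT and 1.24 (standard error 0.26, adjusted *p* = 0.0177) in PCC vs. HYP, the latter lost without HYP replicate 3 (1.11) or HYP replicate 4 (1.15).

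*Creld2*, an ER stress-induced protein of the ER, had 24.5, 22.5, 23.4, 22.3 and 23.4 CPM in WT, 37.1, 31.4, 28.3, 28.1 and 31.8 in HYP and 47.4, 58.7, 43.9, 50.1 and 38.0 in PCC. The 3 groups did not overlap. In the main fit with TMM, PCC vs. WT alone was called (1.00). The changes were 0.39 in HYP vs. WT and 0.49 in PCC vs. HYP. HYP vs. WT was called with the recovered totals, the listed total or DESeq2. It was also called with at least 10 counts in every sample or with the adjustment over the listed genes alone. PCC vs. HYP was called with the recovered totals or the authors' size factors. It was also called with the adjustment over the listed genes alone or with all 15 samples in 1 fit. *Dnajc10*, an ER disulfide reductase with a J domain (0.98), *Hyou1*, the exchange factor GRP170 (0.60), and the HSP70 relative *Hspa13* (0.49) were higher in PCC than in WT. *Hyou1* had 154, 166, 218, 200.3 and 238 CPM in WT, 213, 216, 187, 222 and 247 in HYP and 385, 274, 312, 258 and 278 in PCC. The lowest PCC sample lay above the highest WT and HYP samples. The ER chaperones *Hspa5* and *Hsp90b1* were not listed and so were not analysed here. The 5 listed genes therefore do not stand for all ER chaperones.

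Of the genes for disulfide bonds and prolyl isomerization in the ER, 7 were listed, and in PCC vs. WT 4 were called higher and 3 lower. The lower calls numbered 1 with the recovered totals and 0 with the listed total. *Pdia4*, *Ero1lb*, *Pdia6* and *Fkbp11* were higher, and *Fkbp9*, *Fkbp10* and *Fkbp14*, of which the last pair act on collagen, were fitted lower with every scaling. *Pdia4* (ENSRNOG00000006228, chromosome 4 from 77470636 to 77489535), a protein disulfide isomerase, had 59.2, 54.9, 70.3, 64.4 and 88.4 CPM in WT, 74.8, 87.8, 83.8, 82.3 and 88.0 in HYP and 156, 142, 139.8, 137 and 109 in PCC. Each PCC sample was above each WT and HYP sample, and HYP lay within the upper range of WT. Fitted with edgeR's quasi-likelihood test (Benjamini-Hochberg adjusted), the change was 1.00 (standard error 0.14, adjusted *p* = 0.000520) in PCC vs. WT and 0.60 (standard error 0.15, adjusted *p* = 0.0303) in PCC vs. HYP, and the second call was lost in 8 of 10 fits without a sample, with changes from 0.51 without PCC replicate 1 to 0.67.

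*Pdia6* had 127, 126, 155, 145 and 174 CPM in WT, 139, 122, 118, 138 and 159 in HYP and 209, 183, 196, 216 and 201 in PCC. In the main fit with TMM it was called in PCC vs. WT (0.44) and not in PCC vs. HYP (0.46). The latter was called with the recovered totals or the authors' size factors. It was also called with the adjustment over the listed genes alone or with all 15 samples in 1 fit (0.60). *Ero1lb*, the oxidase that recharges the isomerases, changed by 0.87 in PCC vs. WT, but it overlaps *Gpr137b* on the opposite strand, and no strand setting is given in the sources used here. *Fkbp9* (ENSRNOG00000005478, chromosome 4 from 87167514 to 87234197), a prolyl isomerase of the ER, had 57.3, 57.2, 73.3, 72.3 and 91.3 CPM in WT, 36.4, 61.2, 51.7, 51.4 and 46.4 in HYP and 28.2, 12.2, 28.6, 10.1 and 49.6 in PCC. All PCC samples were below all WT samples, and PCC replicates 2 and 4 were the lowest. By edgeR's quasi-likelihood test (Benjamini-Hochberg adjusted) the change was -1.48 (standard error 0.37, adjusted *p* = 0.00959) in PCC vs. WT and -0.54 (standard error 0.17, adjusted *p* = 0.0460) in HYP vs. WT. The first call was lost with the listed total (-0.99), and the second with the recovered and listed totals with at least 10 counts in every sample (-0.43), with all 15 samples in 1 fit (-0.53) and in 8 of 10 fits without a sample (-0.64 to -0.45).

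Of the UPR sensors and factors, *Eif2ak3* and *Atf4* were listed, and *Xbp1*, *Atf6*, *Ern1* and *Ddit3* were not analysed here. *Eif2ak3* (ENSRNOG00000006069, chromosome 4 from 98648545 to 98709694), the sensor kinase PERK, had 16.8, 12.1, 15.2, 13.0 and 16.9 CPM in WT, 22.7, 28.0, 21.4, 23.3 and 30.2 in HYP and 40.9, 34.1, 33.0, 41.2 and 28.9 in PCC. WT lay below both other groups, and PCC replicate 5 lay within the HYP range. The change from edgeR's quasi-likelihood test (Benjamini-Hochberg adjusted) was 1.23 (standard error 0.17, adjusted *p* = 0.000406) in PCC vs. WT, 0.72 (standard error 0.16, adjusted *p* = 0.00987) in HYP vs. WT and 0.39 (standard error 0.16, adjusted *p* = 0.205) in PCC vs. HYP, where it was not called except with the adjustment over the listed genes alone or with all 15 samples in 1 fit (0.54).

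*Atf4* (ENSRNOG00000017801, chromosome 7 from 121480723 to 121482781), the transcription factor whose translation PERK raises, went the other way in RNA level. It had 439, 449.5, 339, 423 and 178 CPM in WT, 221, 154, 232, 186 and 175 in HYP and 214, 122, 141, 194 and 182 in PCC. WT replicates 1 to 4 were above all HYP and PCC samples, and WT replicate 5 lay within both ranges. Its fold change in edgeR's quasi-likelihood test (Benjamini-Hochberg adjusted) was -1.17 (standard error 0.29, adjusted *p* = 0.00967) in PCC vs. WT and -0.96 (standard error 0.25, adjusted *p* = 0.0218) in HYP vs. WT, and without WT replicate 5 these were -1.37 and -1.15. The PCC call was lost with the listed total (-0.70), and the HYP call with the recovered (-0.82) and listed totals (-0.51).

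Target genes of ATF4 and of CHOP, the factor encoded by *Ddit3*, were taken from a list of 24, of which 20 were listed. In PCC vs. WT 6 of 20 were called higher and 12 lower, with a median of -1.55 beside 0.44 over all genes. Higher were *Stc2*, a secreted glycoprotein (4.07), *Asns*, asparagine synthetase (1.66), and *Shmt2*, which makes glycine in mitochondria (1.20). Lower were *Atf3* (-3.14), *Mthfd2* of mitochondrial folate metabolism (-2.82), *Ppp1r15a*, which ends the PERK signal (-1.99), and *Trib3* (-1.53). Several of these genes, among them *Atf3* and *Cebpb*, also answer to stimuli other than ATF4.

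In HYP vs. WT 7 of 8 ATF4 and CHOP targets were called lower and 0 higher by edgeR, with 1 higher at an unadjusted *p* under 0.05 and 1 by DESeq2, and the median was -1.39 beside -0.37. In PCC vs. HYP 2 of 12 were higher, *Stc2* (4.59) and *Asns* (1.16), and 3 lower, *Aldh1l2* (-2.44), *Gpt2* (-1.71) and *Slc7a5* (-1.29), with a median of -0.47. Summed CPM over 17 genes, led by *Mthfd2*, were 2475, 2424, 2324, 2159 and 2226 in WT, 1250, 838, 913, 1048 and 940 in HYP and 738, 536, 747, 869 and 1200 in PCC. All WT samples were above all others, and PCC replicates 4 and 5 lay within the HYP range.

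The translocon carries new proteins into the ER. *Sec61a1*, its pore, and *Sec61b* were called lower in PCC vs. WT and in HYP vs. WT, and were fitted lower with every scaling in PCC. The calls of *Sec61a1* were lost in both comparisons with the recovered and with the listed totals. *Sec61b* (ENSRNOG00000006345, chromosome 5 from 63192298 to 63200508) had 268, 238, 249, 271 and 285 CPM in WT, 167, 128, 185, 154 and 137 in HYP and 128, 51.1, 97.5, 61.2 and 121 in PCC. WT samples were above all others, and PCC replicates 2 and 4 were the lowest, as they were for the cortex markers. Fitted with edgeR's quasi-likelihood test (Benjamini-Hochberg adjusted), the change was -1.56 (standard error 0.24, adjusted *p* = 0.000800) in PCC vs. WT, -0.80 (standard error 0.15, adjusted *p* = 0.00421) in HYP vs. WT and -0.86 (standard error 0.27, adjusted *p* = 0.0723) in PCC vs. HYP. The last was not called in the main fit, but it was with DESeq2, the adjustment over the listed genes or all 15 samples in 1 fit (-0.73). The HYP vs. WT call was lost with the listed total (-0.35). *Ssr2* of the translocon-associated complex was not called in HYP vs. WT (-0.37). No gene of ER-associated degradation among the families chosen was listed.

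Genes of ER glycosylation, quality control and export were taken from a list of 38, of which 17 were listed. In PCC vs. WT 6 of 15 were called higher and 6 lower, with a median of -0.43. *Creb3l2* (1.43), a factor of secretory capacity, and the folding sensors *Uggt2* (1.38) and *Uggt1* (0.71) were higher. *Creb3l1*, a related factor, was lower in PCC (-4.53), in HYP (-2.68) and in PCC vs. HYP (-1.95), as was *Serp1* in PCC (-1.31) and HYP (-0.63) against WT. In HYP vs. WT 1 of 11 was called higher, *Uggt2* (1.04), and 5 lower, with a median of -0.44. In PCC vs. HYP 2 of 4 were called lower, *Creb3l1* and *Wfs1* (-0.81), and 0 higher by edgeR, with 2 higher at an unadjusted *p* under 0.05 and 0 by DESeq2, and the median was -0.19. Summed CPM over 11 genes, with *Vcp* the most abundant, were 1282, 1381, 1828, 2197 and 1903 in WT, 1021, 1063, 1229, 1192 and 1216 in HYP and 1152, 867, 1066, 1007 and 1116 in PCC.

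Markers of the other cells in the tissue that were in a table are given here. Chromaffin markers, 8 of 11 listed, were called higher for 8 of 8 in PCC vs. WT, 4 of 5 in HYP vs. WT and 2 of 7 in PCC vs. HYP, and none was at 0 in every sample. Summed over 8 genes, led by *Th*, they stood at 5931, 7410, 5412, 5051 and 1708 CPM in WT, 12800, 10920, 8026, 9974 and 12260 in HYP and 28400, 17000, 16220, 22190 and 14610 in PCC. WT replicate 5, which was the lowest WT sample for *Bag3*, *Atf4*, *Dnajc6* and *Dnajc27*, had the lowest sum of all samples. In every WT and HYP sample the chromaffin sum lay below the sum of the 9 cortex genes, and in every PCC sample it lay above.

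Proliferation genes, 10 of 10 listed, were called higher for 10 in PCC vs. WT, 10 in HYP vs. WT and 9 in PCC vs. HYP. Their summed CPM, led by *Aurkb*, were 20.4, 20.4, 19.6, 23.6 and 33.1 in WT, 91.7, 116, 85.8, 79.3 and 84.2 in HYP and 153, 362, 200.1, 312 and 139 in PCC, with no overlap between groups. Endothelial markers, 8 of 12 listed, were called lower for 5 and higher for 1 of 8 in PCC vs. WT, lower for 6 of 6 in HYP vs. WT and higher for 1 of 3 in PCC vs. HYP. The endothelial sum over 7 genes, led by *Kdr*, was 665, 633, 545, 678 and 670.4 CPM in WT, 379, 379, 458, 407 and 376 in HYP and 229, 241, 403, 259.8 and 436 in PCC.

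Smooth muscle and pericyte markers, 4 of 7 listed, were called higher for 3 of 4 in PCC vs. WT, 1 of 1 in HYP vs. WT and 1 of 2 in PCC vs. HYP. Over 2 genes, led by *Rgs5*, they summed to 52.6, 56.0, 30.0, 55.8 and 35.1 CPM in WT, 101, 152, 122, 119.6 and 129 in HYP and 1259, 638, 1225, 2232 and 515 in PCC, with no overlap between groups. Fibroblast markers, 6 of 6 listed, were higher for 3 of 3 in PCC vs. WT and 2 of 4 in HYP vs. WT, and 0 of 2 were called in PCC vs. HYP by edgeR, where 2 were lower at an unadjusted *p* under 0.05 and by DESeq2. Over 3 genes, led by *Col3a1*, the sums were 33.2, 56.1, 31.3, 43.7 and 55.9 CPM in WT, 103, 123.1, 85.2, 102 and 106 in HYP and 57.8, 75.0, 172, 95.8 and 102 in PCC.

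Sustentacular and Schwann markers, 7 of 10 listed, were split, with 5 called higher and 2 lower of 7 in PCC vs. WT, 4 higher and 1 lower of 6 in HYP vs. WT and 2 lower of 3 in PCC vs. HYP. Their sums over 7 genes, led by *S100b*, were 86.4, 108, 105, 111 and 59.5 CPM in WT, 80.5, 115, 117, 85.6 and 95.4 in HYP and 60.3, 83.2, 110.4, 91.2 and 78.7 in PCC, and the groups overlapped. Of 14 macrophage and T cell markers, *Cd163* and *Cd14* were listed, and *Cd163* was called higher (1.30) and *Cd14* lower (-1.48) in PCC vs. WT, while in HYP vs. WT *Cd163* was higher (1.31) and in PCC vs. HYP *Cd14* was not called (-1.15). Their sums were 33.2, 30.6, 37.8, 39.1 and 40.7 CPM in WT, 52.7, 55.2, 48.1, 54.0 and 56.8 in HYP and 59.5, 42.5, 44.7, 10.4 and 61.1 in PCC.

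Of 9 B and plasma cell markers, *Sdc1* alone was listed, which many other cells also make. It was higher in PCC than in WT (3.75) and HYP (3.02), at 2.23, 2.04, 1.96, 3.23 and 1.45 CPM in WT, 5.65, 1.85, 2.14, 4.01 and 3.47 in HYP and 24.0, 17.1, 47.6, 53.8 and 10.2 in PCC. Of 6 adipocyte and 6 erythroid markers, 0 were listed. No marker summed here was at 0 in every sample. The part of any of these cell types in the levels of the members was not tested.

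**Figure D3:**
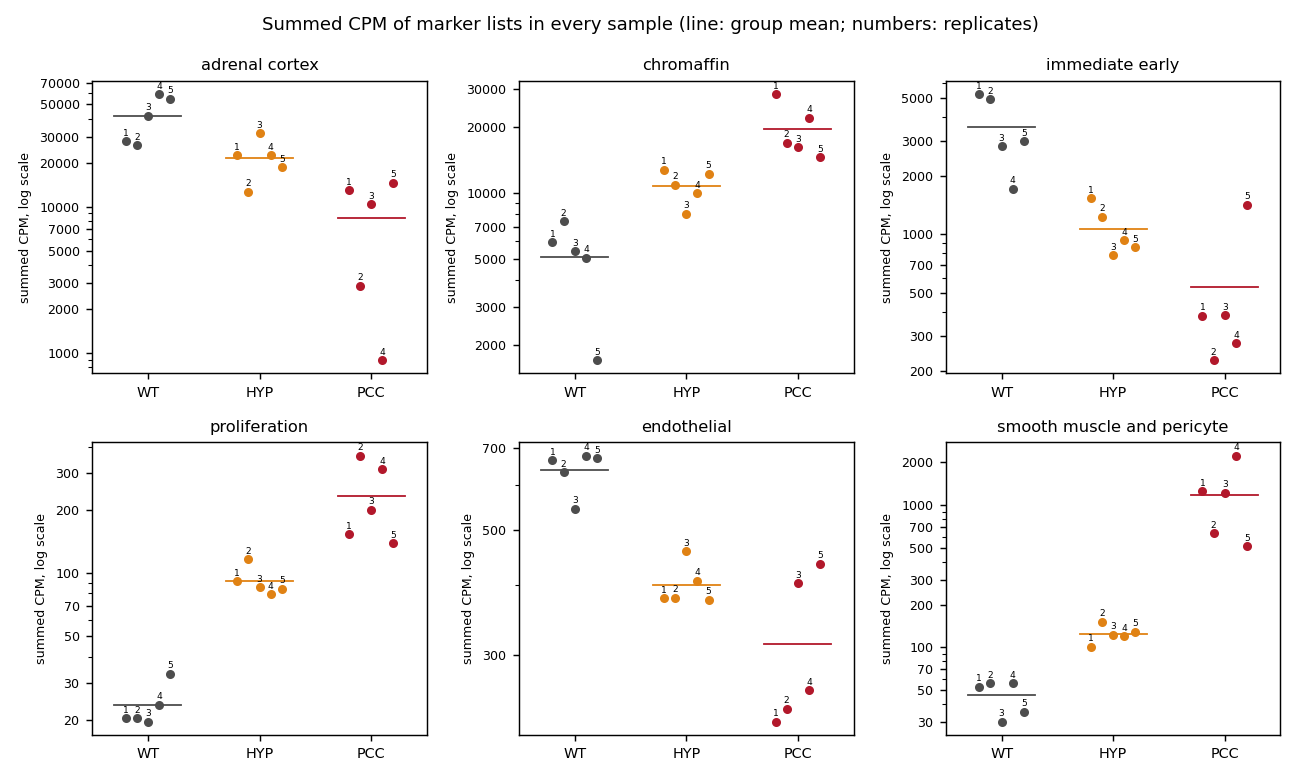
Each panel shows the summed CPM of a marker list on a log scale in every sample, with the replicate number at each point and the group mean as a line. PCC replicates 2 and 4 have the lowest cortex sums (2875 and 893 CPM), and WT replicate 5 has the lowest chromaffin sum (1708 CPM).

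Promoters of the members were searched for elements through which ER stress, heat shock and ATF4 are known to act. RefSeq promoter sequences of build GRCr8 were matched by symbol for 66 of the 75 members, and the 250 bases before each gene start were read on both strands. *Psma7*, *Dnajc11*, *Dnajb4*, *Dnajc15*, *Sec61a1*, *Pdia6*, *Fkbp10*, *Dnajc24* and *Dnajc22* had no entry. A match is a description of the sequence, and its absence says only that the letters are not in this window. Among the members with a match, those of *Creld2*, *Ero1lb*, *Dnajc10*, *Hspd1* and *Hspa9* are marked as inside an annotated gene. Whether any match acts on the member was not tested.

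The ER stress response element (ERSE), CCAAT, then any 9 bases, then CCACG, was found in 2 of 66 members (3.03%), *Creld2* and *Ero1lb*, beside 0.0765% of all 27457 promoters. Both matches were on the opposite strand to the gene, so they read as CGTGG and ATTGG around 9 bases. They lie at chr7:121789234-121789262 on the plus strand, 145 bases before the gene start, and at chr17:92941453-92941481 on the plus strand, 224 bases before it. Each is shown with 5 bases on either side and the match in capitals.
Creld2 ERSE: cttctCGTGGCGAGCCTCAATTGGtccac
Ero1lb ERSE: gccctCGTGGTCCCGCCTCATTGGccgcc

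The core of the UPR element (UPRE), TGACGTGG, was found in 4 of 66 members (6.06%), *Bag3*, *Dnajc10*, *Hyou1* and *Bag2*, beside 0.550% of all promoters. The 250 bases before the start of *Hyou1*, at chr8:53602632-53602881 on the plus strand, hold it 191 bases before the start. Those of *Bag3*, at chr1:192533210-192533459 on the plus strand, hold it on the opposite strand 36 bases before the start, where it reads CCACGTCA. *Hyou1* was higher and *Bag3* lower in PCC than in WT. For *Dnajc10*, the match at chr3:85639476-85639493 is on the opposite strand to the gene and is given as read on the plus strand with 5 bases on either side. The capitals mark the UPRE core.
Hyou1 promoter: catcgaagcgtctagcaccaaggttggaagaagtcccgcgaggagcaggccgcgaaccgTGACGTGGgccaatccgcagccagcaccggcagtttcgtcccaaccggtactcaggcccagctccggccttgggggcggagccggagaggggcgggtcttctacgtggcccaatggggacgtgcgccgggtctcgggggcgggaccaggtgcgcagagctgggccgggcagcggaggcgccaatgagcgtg
Bag3 promoter: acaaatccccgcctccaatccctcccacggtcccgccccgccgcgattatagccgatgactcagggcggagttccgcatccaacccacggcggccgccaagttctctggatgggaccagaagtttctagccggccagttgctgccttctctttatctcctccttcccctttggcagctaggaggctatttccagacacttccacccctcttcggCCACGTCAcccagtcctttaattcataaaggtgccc
Dnajc10 UPRE core: gaaggCCACGTCAgccta

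The heat shock element, GAA, any 2 bases, TTC, any 2 bases, GAA, or its inverse, was found in 1 of 66 members (1.52%), *Hspd1*, beside 0.597% of all promoters. It holds 2 overlapping matches at chr9:64084257-64084284 on the minus strand, which the capitals mark together.
Hspd1 heat shock element: gggccTTCCGGAAGGTTCTAGAAccgag

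The element bound by ATF4 with C/EBP proteins (CARE), TGATG, any base, AA, any base, was found in 3 of 66 members (4.55%), *Psmb4*, *Psmb2* and *Hspa9*, beside 3.25% of all promoters.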

How the data were processed

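RNA-seq of 15 rats was used, 5 per group by the labels, with 7 to 9.5 months given as age for WT and PCC and 4 to 5 months for HYP. The authors mapped paired-end reads of poly-A RNA to Rn06 with HISAT2 2.0.5 and counted them per gene with featureCounts 1.5.0-p3. The strand setting is not given in the sources used here. The deposited read counts are raw. The normalized signal is the count divided by the DESeq2 size factors of the authors. The FPKM were deposited by the authors per gene length and sample depth. From the deposited p-values only the numbers of genes tested (18790, 18057 and 17454) were recovered.

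Reads on genes per sample, recovered from counts and FPKM, were 16315018 to 23831269. Counts were fitted with edgeR 4.0.16 (limma 3.58.1, R 4.3.3) with TMM over listed genes after filterByExpr had removed 682 genes for PCC over WT, 298 for HYP over WT and 212 for PCC over HYP. Standard errors are the fold change over the square root of F. CPM use TMM over 5492 genes. Scripts ran in Python 3.11.15 with numpy 2.4.6, pandas 2.3.3, scipy 1.17.1 and matplotlib 3.10.9. Tested on simulated data drawn from the 7683 genes of PCC vs. WT, the fit recovered 82.6% of genes changed 2-fold and 100.0% of those changed 4-fold.

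Members, roles and lists were chosen with earlier results of these data known. Named genes were, for each comparison with WT, the called member of each role with the largest increase and that with the largest decrease at a mean of at least 1 CPM. For PCC vs. HYP they were the 5 largest called changes each way. Of 15 fixed names, 4 were listed. The rule gave 23 genes, and other genes were chosen after their values were seen. Pathway lists held ATF4 and CHOP targets, ER glycosylation and export genes, heat shock factors with HSP90 partners and prefoldin, and proteasome biogenesis genes. There were 12 marker lists. Reads of near-identical copies (*Hspa1b*) or overlapping genes (*Hspa1b*, *Dnajb14*, *Ero1lb*, *Cct6b*) may be shared, so these levels are uncertain. The alternatives were DESeq2 1.42.0, other scalings, filters, adjustments and fits, a replicate block, a 2-fold limit and leaving out each sample.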

Additional observations from a re-analysis of the deposited data

Results flagged for a closer look

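In a group of 5, a sample was picked out when its gap to the nearest other sample was over 0.71 of the range of the group (Dixon). Of 65 groups of the 23 genes named by the rule, 3 held such a sample, and chance picks out about 5% of groups.

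*Hspa1b* had 17.8 CPM in PCC replicate 4, which was picked out because it lay far above the other PCC samples, whose highest was 3.97 and lowest 2.02 CPM. *Hspd1* had 2902 CPM in HYP replicate 3, far above the other HYP samples (1554 to 1805 CPM). *Sdf2l1* had 22.9 CPM in HYP replicate 1, far above the other HYP samples (9.37 to 12.5 CPM). Reasons for these values were not tested.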

How the results depend on the processing

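Of 756 alternatives for 40 fold changes of single members, 637 kept direction and side of the threshold, 114 lost the call, 5 gained it and 0 reversed. Counts of members called moved as follows, and the cause was not tested. In PCC vs. WT 16 higher became 9 with the replicate block and 5 at 2-fold, and 35 lower became 17 with recovered totals, 11 with the listed total and 16 at 2-fold. In HYP vs. WT 2 higher became 5 with DESeq2, 1 with the authors' size factors, 4 with the listed total, no filter, at least 10 counts or the adjustment over listed genes, and 0 at 2-fold. There 21 lower became 6 with recovered totals, 2 with the listed total, 8 with at least 10 counts, 13 with the replicate block and 3 at 2-fold. In PCC vs. HYP 4 higher became 7 with the authors' size factors or recovered totals, 12 with the adjustment over listed genes, 10 with all 15 samples in 1 fit, 0 with the replicate block and 2 at 2-fold. There 4 lower became 16 with DESeq2 or the adjustment over listed genes, 2 with recovered totals or at 2-fold, 1 with the listed total or the replicate block and 7 with no filter. The 0 of edgeR with the replicate block stood beside 9 members higher at an unadjusted *p* under 0.05, and DESeq2 called 5 higher without a block. Leaving out each sample in turn gave 10 to 18 higher and 27 to 39 lower in PCC vs. WT, 1 to 3 and 9 to 20 in HYP vs. WT, and 0 to 6 and 2 to 12 in PCC vs. HYP.

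Replicate numbers do not pair the samples. Over 15 pairs of samples with the same number the correlations ran from -0.167 to 0.270, and in 5 pairs the sample correlated best with its own number, so the replicate block is given here alone. Genes outside the tables were not seen, which leaves members that were not listed unmeasured. At the lowest depth, 16315018 reads, 1 count is a small fraction of 1 CPM, and genes near 3 counts such as *Psma8* and *Hspb3* were not tested.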
